A study of Mus musculus with 2 samples.

Results

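Lymphatic endothelial cells (LECs), labeled here as the capillary type, were examined in 2 mouse tumor scRNAseq libraries that had been sorted for blood endothelial cells (BECs). LECs were chosen by measured counts. A cell was taken as an LEC when its unique molecular identifiers (UMIs, the counted RNA molecules) for Mmrn1, Prox1 and Reln summed to at least 3, those for the sinus genes Stab2 and Ackr4 to at most 1, and those for Ptprc, Col1a2, Epcam and Notch3 to at most 1. These rules selected 1548 of the 21335 cells that passed filters of 500 or more genes and a mitochondrial share below 10%. The KPC library gave 870 LECs, 9.07% of its 9591 cells (exact Clopper-Pearson 95% interval 8.50 to 9.66), and the PyMT library gave 678, 5.77% of its 11744 cells (5.36 to 6.21). The shares were 5.24% and 2.81% without cells that had at least 2 UMIs of Plvap and Flt1, and 3.31% in PyMT when the first sum had to reach 5. The comparison cells were 6889 KPC and 9793 PyMT BECs, which had at least 2 UMIs over Pecam1, Cdh5 and Egfl7, none of Mmrn1, Prox1 or Reln, and at most 1 over the same 4 genes of other cell types.

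The KPC library came from pancreatic tumors and the PyMT library from mammary tumors. Both were grown for 10 days in the organ of origin of 6-week-old wild-type C57BL6 female mice, each given 100000 tumor cells and no further treatment. Each tumor model had 1 library, and the number of mice in a library was not given in the sources used here. Before sorting, cells marked by CD45, EpCAM, Ter119 or podoplanin antibodies or by Annexin V, a label of dying cells, were depleted, so these LECs are the ones that remained after a depletion directed at a lymphatic surface protein, and their shares do not measure how frequent lymphatic vessels were.

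Lymphatic capillaries are thin, blind-ended vessels that take up interstitial fluid, macromolecules and leukocytes, and pass them to collecting vessels with valves and on to the lymph node sinuses. Their endothelium is specified by Prox1 together with Sox18 and Nr2f2, grows in response to VEGF-C through the receptor encoded by Flt4, and displays the chemokine CCL21, which draws CCR7-bearing dendritic cells and T cells into the vessel. Capillary LECs are known for the hyaluronan receptor encoded by Lyve1, while Foxc2 and Cldn11 are known from valves.

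The LECs held 3838437 UMIs in KPC and 2866033 in PyMT, with a median of 3326 and 3364 UMIs per cell. BECs had a median of 2919 and 4032 UMIs, so LECs were the deeper population in KPC and the shallower in PyMT. Levels are given as the summed UMIs of a population scaled to 1000000 (CPM), and differences as log2 ratios of CPM, with 95% intervals in square brackets that cover counting error only. A sum of 3 UMIs, taken as the floor, corresponds to 0.782 CPM in KPC LECs and 1.05 CPM in PyMT LECs. With 1 library per tumor model there was no replicate and no test, and a gene is called higher or lower where its log2 ratio reached 1 or -1. Tumor model, organ, digestion and library cannot be told apart.

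The gate on LECs was a cut through a range of counts. Cells that met the other rules and had a sum of 2 over Mmrn1, Prox1 and Reln, just outside the gate, numbered 98 in KPC and 165 in PyMT, and cells with a sum of 3, just inside, numbered 116 and 175. Sums of 6 or more were found in 559 and 299 LECs. Of the barcodes, 170 occurred in both libraries, and 3 of these were LECs in both. LECs with at least 2 UMIs of Stab2 and Ackr4 numbered 3 in KPC and 25 in PyMT, too few for ratios, and they stayed outside the population described here. No doublet caller was run here.

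Genes outside the gate that are textbook markers of LECs were abundant in the selected cells. Ccl21a, which encodes the chemokine CCL21, reached 13087 CPM in KPC LECs and 11623 CPM in PyMT LECs, against 42.0 and 69.0 CPM in BECs, a log2 ratio of 8.28 [8.20, 8.37] and 7.40 [7.34, 7.45]. Lyve1 was measured at 1788 and 844 CPM in LECs and at 10.7 and 6.13 CPM in BECs (log2 ratio 7.38 [7.21, 7.56] and 7.11 [6.93, 7.29]). Pdpn, the transcript of the depleted surface protein podoplanin, stood at 259 and 233 CPM in LECs against 1.15 and 2.65 CPM in BECs. Its log2 ratios of 7.82 [7.30, 8.38] and 6.46 [6.18, 6.75] show that the LECs left after depletion still carried the transcript. Flt4, the VEGF-C receptor gene, was at 345 and 288 CPM in LECs and 42.7 and 41.1 CPM in BECs (3.02 [2.90, 3.13] and 2.81 [2.69, 2.93]). The non-gate markers thus bear out the lymphatic name in both libraries. The capillary type is less settled. The gate left out sinus cells but did not separate capillary LECs from those of collecting vessels and valves. As given below, Lyve1 was not detected in all LECs, and some LECs had Foxc2 or Cldn11.

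On the mm10 assembly (GENCODE annotation), the single-copy markers lie at chr7:110850607-110863239 for Lyve1, chr4:143267431-143299564 for Pdpn and chr11:49609263-49652739 for Flt4. Ccl21a was counted at chr4:42772860-42773993, where a gene on the opposite strand, 4930578G10Rik, overlaps it. The mouse genome carries several near-identical Ccl21 copies, and the rows of Ccl21b and of the further Ccl21a and Ccl21b copies held 0 UMIs, so how reads were divided among the copies is uncertain. Of the predicted genes also on chromosome 4, Gm21541 had 270 UMIs in KPC LECs and 107 in PyMT LECs against 1 and 5 in BECs, Gm10600 had 125 and 56 against 0 and 4, and Gm13304 had 60 and 40 against 1 and 2. Whether their counts are separate from those of Ccl21a was not tested.

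The upstream sequences of Pdpn and Ccl21a are shown because these genes, a surface glycoprotein and a chemokine that lie on the same chromosome, were among the 15 with the highest ratios. They were read from RefSeq promoters of GRCm38.p6 (mm10), 5′ to 3′ on the minus strand of both genes, at chr4:143299565-143299714 for Pdpn and chr4:42773994-42774141 for Ccl21a. Capitals mark ACAAAG, the core bound by SOX factors, and AGGTCA, the half-site bound by COUP-TF factors such as Nr2f2, searched on both strands.
Pdpn: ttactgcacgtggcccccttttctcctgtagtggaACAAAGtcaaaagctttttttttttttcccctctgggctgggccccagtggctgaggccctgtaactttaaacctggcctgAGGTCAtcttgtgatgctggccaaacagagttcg
Ccl21a: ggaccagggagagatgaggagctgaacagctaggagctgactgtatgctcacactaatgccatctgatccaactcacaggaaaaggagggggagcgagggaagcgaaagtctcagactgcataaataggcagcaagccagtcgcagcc
The Pdpn match to ACAAAG begins at position -115 and that to AGGTCA at position -34 from the RefSeq start, and neither motif was found in the Ccl21a stretch. Of the 15 genes with the highest ratios, 9 had a promoter in the table, and within the 250 bases upstream of each, AGGTCA was found in 2 and ACAAAG in 2. Over all 32851 promoters, 14.0% held AGGTCA and 16.5% held ACAAAG. These matches describe the letters only.

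**Figure D1:**
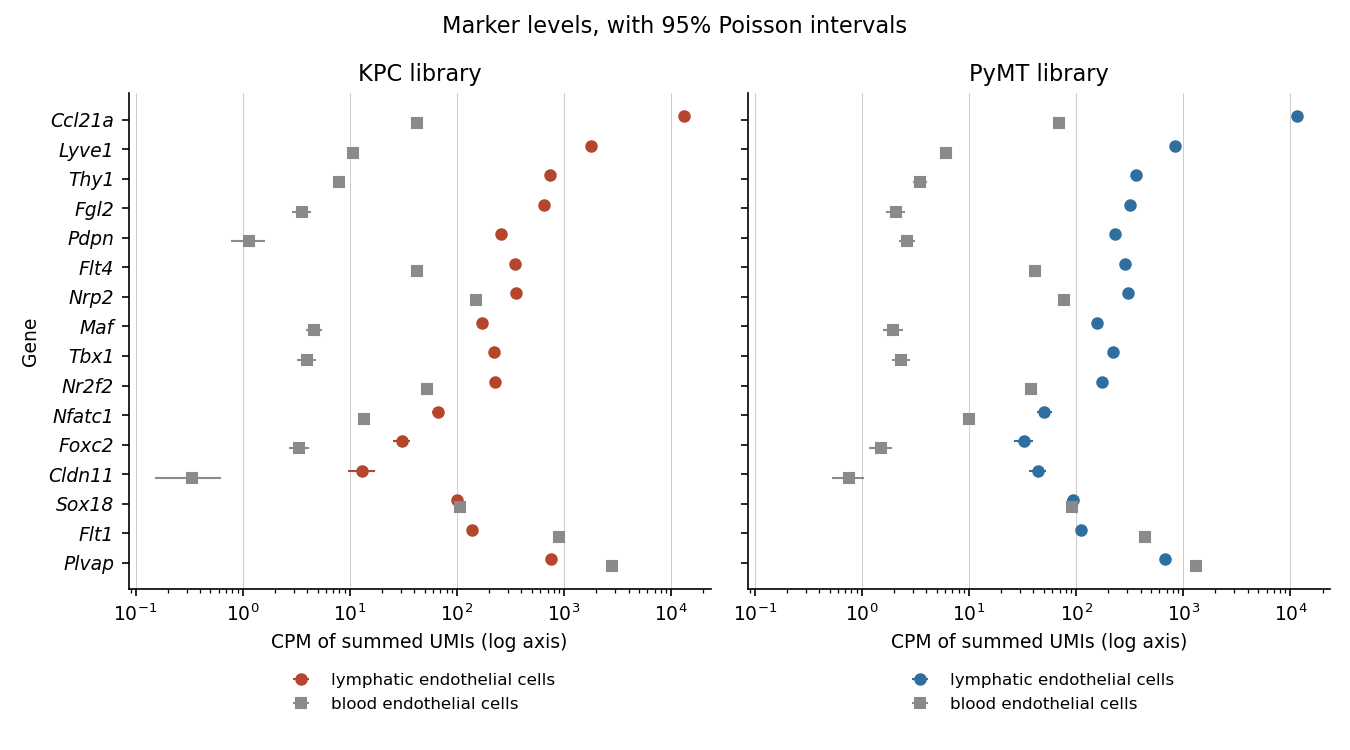
Levels of 16 genes (rows) in LECs (circles) and BECs (squares) of the KPC library (left) and the PyMT library (right), as CPM of summed UMIs on a log axis with 95% Poisson intervals. Ccl21a lies near 13087 and 11623 CPM in LECs, Sox18 overlaps between the populations, and Flt1 and Plvap lie further right in BECs.

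Of the LEC markers, Ccl21a and Lyve1 were detected in most LECs, and Pdpn, after thinning, in a minority. A UMI of Ccl21a was found in 91.0% of KPC LECs and 89.4% of PyMT LECs, and after thinning each cell to 2000 UMIs in 88.8% and 85.9%. The same thinning, which left out 216 and 160 shallower LECs and 2483 and 1008 BECs, gave 6.72% and 7.32% of BECs with a Ccl21a UMI. Non-endothelial cells had at least 3 UMIs over Ptprc, Col1a2, Epcam and Notch3 and none of the gate genes of LECs and BECs, and numbered 410 in KPC and 17 in PyMT, so that PyMT values for them rest on 73214 UMIs. Those of KPC, with a median of 4727.5 UMIs before thinning, gave 6.96%, so the share in KPC BECs lay at the background. Lyve1 was detected in 78.7% of thinned KPC LECs (87.9% unthinned) and in 58.9% of thinned PyMT LECs (69.0% unthinned). Thinned BECs had Lyve1 in 1.41% and 0.933%. A UMI of Pdpn was seen in 39.8% and 35.1% of thinned LECs (57.0% and 52.2% unthinned) and in 0.159% and 0.433% of thinned BECs. Pdpn was also found in 27.9% of thinned KPC non-endothelial cells (45.9% unthinned), so it was not particular to LECs.

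Genes past the fold were found in both directions in each library. Of 8584 genes counted in KPC, 601 (7.00%) were higher and 663 (7.72%) lower in LECs than in BECs. In PyMT, 709 of 8293 genes (8.55%) were higher and 381 (4.59%) lower, and 638 were lower without LECs that had at least 2 UMIs of Plvap and Flt1. Among the 8056 genes counted in both libraries, 445 (5.52%) were higher in both and 309 (3.84%) lower in both. These 445 genes were part of 533 higher in KPC and 655 higher in PyMT, and the 309 part of 521 and 351 lower. The log2 ratios of the 2 libraries had a Pearson r of 0.88 and a Spearman rho of 0.71 over 8054 genes, which share a library's depth and are not independent points, and 5 genes passed the fold in opposite directions. The median log2 ratio over all genes was 0.02 and 0.08.

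**Figure D2:**
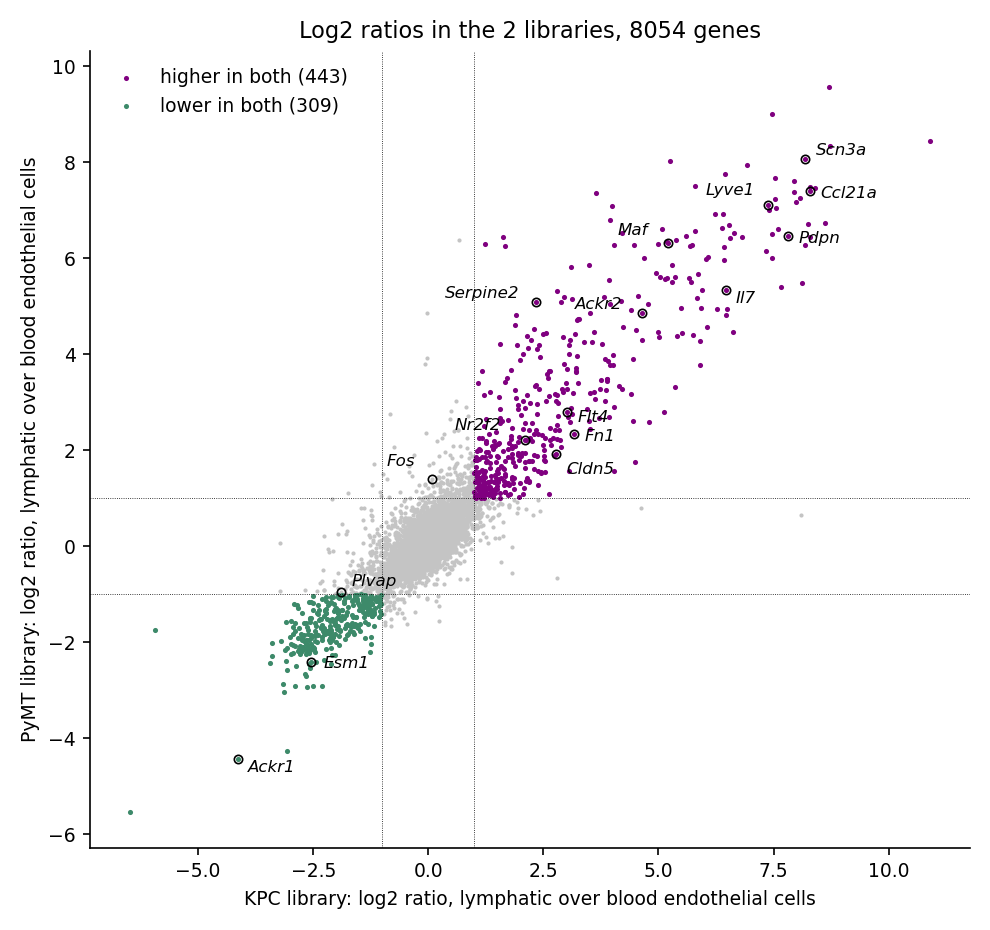
Log2 ratio of LECs over BECs in the KPC library (x axis) and the PyMT library (y axis), 1 point per gene for 8054 genes (genes with 0 UMIs in one population are not drawn). Purple points are higher and green points lower in both, dotted lines mark 1 and -1, and Ccl21a, Scn3a and Lyve1 lie at the upper right with ratios above 7 in both.

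By the rank fixed for naming genes, the 15 highest smaller ratios among genes of at least 100 CPM in LECs belonged to Scn3a, Pard6g, Slc45a3, Ccl21a, Ptx3, Fgl2, Gap43, Lyve1, Thy1, Sh3gl3, Pdpn, Fxyd6, Tbx1, Maf and Cp. Scn3a, a voltage-gated sodium channel subunit better known from neurons, was at 227 CPM in KPC LECs and 173 CPM in PyMT LECs against 0.777 and 0.647 CPM in BECs. Its log2 ratios were 8.19 and 8.06. Pard6g, a component of the PAR polarity complex, had 295 and 246 CPM in LECs against 1.59 and 1.21 CPM in BECs (7.54 and 7.67). Gap43, a growth-associated protein of axons, had 270 and 168 CPM against 1.07 and 1.16 CPM (7.98 and 7.17). All 3 were thus close to 0 in BECs of both libraries. Thy1, a glycoprotein that binds leukocyte integrins, had 738 and 363 CPM in LECs and 7.95 and 3.52 CPM in BECs (6.54 and 6.69). Non-endothelial cells had 270 CPM of Thy1 in KPC and 615 CPM in the 17 cells of PyMT.

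Among the listed factors and receptors of lymphatic identity other than Prox1, 9 of 15 were higher and 1 lower in KPC LECs, and 8 were higher and 0 lower in PyMT LECs. Over all genes 7.00% and 8.55% were higher and 7.72% and 4.59% lower. The median log2 ratio was 1.39 and 1.97. Tbx1, a T-box factor, was at 221 CPM in the LECs of both libraries against 3.96 and 2.33 CPM in BECs (5.80 [5.51, 6.11] and 6.56 [6.27, 6.87]). Maf, a bZIP factor, was at 172 and 156 CPM in LECs against 4.66 and 1.96 CPM in BECs (5.21 [4.93, 5.49] and 6.31 [5.98, 6.65]). Nfatc1, a calcium-regulated factor needed in lymphatic patterning, had log2 ratios of 2.29 and 2.33. Not every regulator of the program separated the populations. Sox18, which acts upstream of Prox1, stood at 101 and 92.8 CPM in LECs and 106 and 91.8 CPM in BECs, a log2 ratio of -0.08 and 0.02, and Hhex had 0.36 and 0.42.

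The receptors of the list divided in the same way. Nrp2, a VEGF-C co-receptor, was higher in LECs by a log2 ratio of 1.25 and 1.97, whereas the angiopoietin receptor genes Tie1 (0.10 and 0.25) and Tek (-0.94 and -0.44) did not pass the fold. Over the wider list of VEGF, angiopoietin and adrenomedullin signaling, 4 of 16 counted genes were higher and 5 lower in KPC LECs, and 3 were higher and 3 lower in PyMT LECs, beside 7.00% and 7.72% of all genes in KPC and 8.55% and 4.59% in PyMT. Angpt2, a TIE2 ligand, was among the higher (1.50 and 1.26). Flt1 (-2.69 and -1.97), Nrp1 (-2.80 and -2.07) and Vegfc (-2.57 and -1.52) were lower in LECs, while Kdr, the main VEGF-A receptor, had -0.76 and -0.05. Calcrl and Ramp2, the adrenomedullin receptor pair, had ratios of 0.62 and 0.77, and of 0.31 and 0.28. In LECs, Kdr and the TIE receptor genes were thus within the fold of BECs, Tek in KPC close to its edge, while Flt1 and Nrp1 were lower. A part of the LECs held blood endothelial transcripts, as given below, and their part in these values was not tested.

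Of the 10 listed genes of initial lymphatics, 8 were higher in LECs of each library and 1, Cd36, was lower, with medians of 4.78 and 4.63, beside 7.00% higher and 7.72% lower of all genes in KPC and 8.55% and 4.59% in PyMT. Besides the markers above these included the integrin subunit gene Itga9 (2.04 and 1.94) and the elastic fiber gene Emilin1 (1.38 and 1.16), both known from lymphatic vessels. Fgl2, a prothrombinase-like secreted protein, was at 655 and 317 CPM in LECs against 3.55 and 2.09 CPM in BECs (7.53 and 7.24). The mechanosensitive channel gene Piezo2 stayed within the fold (0.79 and 0.21). The fatty acid transporter gene Cd36 was at 25.8 and 68.0 CPM in LECs against 197 and 219 CPM in BECs (-2.93 and -1.69). This list was chosen with earlier results of these data known, so its counts are a description. It shares Lyve1, Flt4 and Pdpn with the identity list above.

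The lymph node sinus list did not behave as a unit in LECs. Of the genes counted, 3 of 8 were higher and 4 lower in KPC (all genes 7.00% and 7.72%), and 3 of 6 were higher and 1 lower in PyMT (8.55% and 4.59%). The 3 higher in both were Ptx3, a soluble pattern receptor (256 and 179 CPM against 1.04 and 1.08 CPM in BECs), the mannose receptor gene Mrc1 (4.04 and 6.28) and the cytokine gene Ltb (4.64 and 4.29). Ptx3 was also at 193 CPM in non-endothelial cells of KPC and at 27.3 CPM in those of PyMT. Marco and Clec4g, both known from sinus endothelium, had 0 UMIs in LECs of both libraries, below the floor of 0.782 and 1.05 CPM.

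Genes of collecting vessels and valves went in both directions. Of 9 counted members in each library, 3 were higher and 2 lower in KPC LECs (all genes 7.00% and 7.72%), and 5 were higher and 1 lower in PyMT LECs (8.55% and 4.59%). Foxc2, the forkhead factor of valve formation, had 30.5 and 32.4 CPM in LECs against 3.37 and 1.51 CPM in BECs (3.18 [2.77, 3.59] and 4.43 [3.96, 4.89]). Cldn11, a claudin known from valves, had 13.0 and 44.0 CPM against 0.333 and 0.755 CPM (5.29 [4.25, 6.50] and 5.86 [5.31, 6.45]). Celsr1, a planar cell polarity cadherin, had 3.92 and 5.54. The connexin gene Gja4, which arterial endothelium also uses, was at 136 CPM in KPC LECs against 133 CPM in BECs (0.03), and had 1.08 in PyMT.

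Cells with at least 2 UMIs over Foxc2, Cldn11 and Gja4 numbered 120 of 870 in KPC (13.8%, 11.6 to 16.3) and 130 of 678 in PyMT (19.2%, 16.3 to 22.3). Gja4 gave most of the UMIs behind this gate, 523 over all KPC LECs against 117 of Foxc2 and 50 of Cldn11, and 515 against 93 and 126 in PyMT, so the KPC cells were chosen largely on a gene that did not separate LECs from BECs. The selected cells were deeper than the rest, with a median of 4403.5 against 3190 UMIs in KPC and 4038.5 against 3153 in PyMT, and the part of depth in the gate was not tested. Relative to the other LECs they had more Serpine2, a protease inhibitor (418 against 141 CPM in KPC, 348 against 108 CPM in PyMT, log2 ratio 1.57 [1.35, 1.80] and 1.69 [1.42, 1.96]). Neo1 (1.46 and 3.03) and the ephrin gene Efnb2 (1.28 and 1.51) passed the fold upward as well. The zinc finger factor gene Gata2 was at 47.2 against 23.6 CPM in KPC and 53.5 against 22.9 CPM in PyMT.

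Of the initial lymphatic genes, Ccl21a, Lyve1, Flt4 and Pdpn stayed within the fold in these cells. Ccl21a differed by 0.04 and 0.17, Lyve1 by -0.35 and 0.06, Flt4 by -0.08 and -0.12 and Pdpn by -0.01 and -0.56. Within the fold too, Fgl2 was higher (0.40 [0.26, 0.54]) and Piezo2 lower (-0.97 [-1.48, -0.50]) in KPC. Ptx3 passed the fold downward, with 101 against 286 CPM in KPC and 64.5 against 212 CPM in PyMT (-1.50 [-1.90, -1.13] and -1.71 [-2.21, -1.25]). Mrc1 was at 37.4 against 69.8 CPM and 7.87 against 30.0 CPM (-0.90 and -1.93). The selected cells thus had less Ptx3 and about the Ccl21a level of other LECs.

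**Figure D3:**
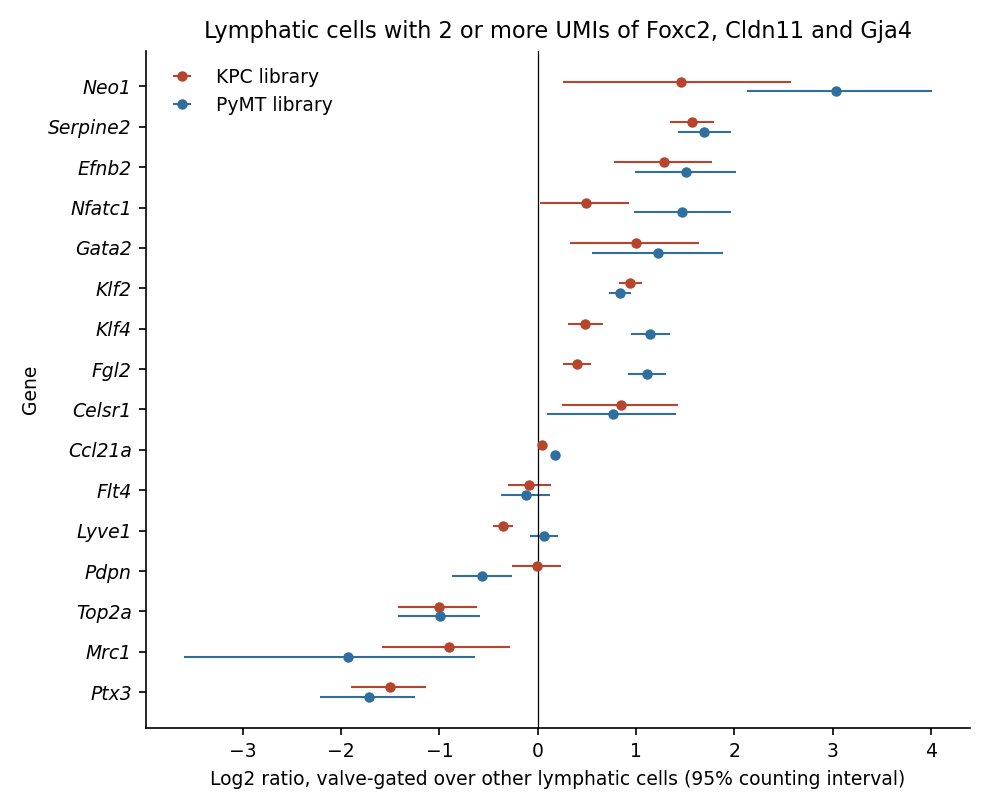
Log2 ratio of LECs with at least 2 UMIs over Foxc2, Cldn11 and Gja4 to the other LECs (x axis) for 16 genes (rows), KPC and PyMT library in separate colors with 95% counting intervals. Serpine2, Efnb2 and Neo1 lie to the right of 1 in both libraries, Ptx3 lies left of -1, and Ccl21a and Flt4 lie near 0.

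In leukocyte traffic, 8 of 23 counted genes were higher and 9 lower in KPC LECs, and 9 of 22 were higher and 3 lower in PyMT LECs, with medians of -0.07 and 0.30. Over all genes 7.00% were higher and 7.72% lower in KPC, and 8.55% and 4.59% in PyMT. Il7, a cytokine that sustains T cells, was at 74.8 and 45.4 CPM in LECs against 0.851 and 1.12 CPM in BECs (6.46 [5.84, 7.14] and 5.34 [4.86, 5.83]). Ackr2, a decoy receptor for inflammatory chemokines, was at 104 and 89.3 CPM against 4.22 and 3.08 CPM (4.63 and 4.86). Ccl2, the monocyte chemokine, was at 122 and 142 CPM against 17.6 and 15.8 CPM (2.80 and 3.16), from 113 and 83 cells. Sema3a, a semaphorin, had ratios of 4.04 and 1.57, and Stab1, a scavenger receptor gene, 2.47 and 2.31.

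Other genes of the list were lower in LECs or within the fold. Ackr1, the chemokine-transporting receptor of venules, had ratios of -4.14 and -4.44 in LECs, and Vcam1, the ligand of integrin VLA-4, -2.92 and -1.21. Cxcl12 was at 39.3 and 24.4 CPM in LECs against 262 and 64.2 CPM in BECs (-2.73 and -1.40). Icam1 (-0.07 and 0.61) and the sphingosine receptor gene S1pr1 (-0.05 and 0.21) stayed within the fold.

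Venular BECs, those with at least 2 UMIs of Selp and Ackr1 (827 in KPC, 527 in PyMT), were set beside LECs for Nr2f2, the factor that marks both veins and lymphatics. LECs had 227 and 174 CPM of Nr2f2, venular BECs 134 and 108 CPM and all BECs 52.8 and 37.7 CPM. The log2 ratio of LECs over venular BECs was 0.76 and 0.69, within the fold, whereas over all BECs it was 2.10 and 2.21. Flt4 was lower in venular BECs than in all BECs, at 22.5 and 21.3 CPM. The ratio of LECs to venular BECs for Flt4 was therefore 3.94 and 3.76. These populations shared Nr2f2 more closely than Flt4.

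Of 12 counted junction genes, 1 was higher and 3 lower in KPC LECs (all genes 7.00% and 7.72%), and 4 were higher and 2 lower in PyMT LECs (8.55% and 4.59%). Cldn5 alone was higher in both, and 2 were lower in both (all genes 5.52% and 3.84%). This claudin of tight junctions was at 1267 and 1559 CPM in LECs against 186 and 409 CPM in BECs (2.77 [2.71, 2.82] and 1.93 [1.88, 1.98]). A UMI of Cldn5 was found in 82.3% and 87.6% of thinned LECs and in 21.4% and 43.5% of thinned BECs. The immunoglobulin-type junction genes Esam (-2.59 and -1.95) and Jam2 (-2.90 and -2.09) were lower in both. The medians of the junction list were -0.03 and 0.21.

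Matrix genes went in both directions. Of 25 counted genes, 6 were higher in LECs of both libraries and 6 lower in both, where 5.52% and 3.84% of all genes were. Fn1, which encodes fibronectin, was at 878 and 1050 CPM in LECs and 98.1 and 209 CPM in BECs (3.16 and 2.33). The metalloproteinase gene Mmp2 (3.20 and 3.63), its inhibitor Timp2 (2.81 and 2.71), and the elastic fiber genes Ltbp4 (1.12 and 2.01) and Fbln5 (1.34 and 1.23) were also higher. Sparc was at 788 and 1383 CPM in LECs against 4166 and 5008 CPM in BECs (-2.40 and -1.86). Col15a1 had -2.58 and -1.58, and Col4a1, a main collagen chain of basement membrane, -0.87 and -0.71.

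Coagulation and complement genes had 5 of 12 higher in LECs of both libraries and 2 lower in both (all genes 5.52% and 3.84%). Serping1, the C1 inhibitor, was at 246 and 165 CPM against 13.1 and 6.95 CPM in BECs (4.23 and 4.57). Serpine2 had 2.35 and 5.08, and Cd55, which limits complement on the cell surface, 2.38 and 2.33. Vwf, the platelet-binding factor stored by blood endothelium, was lower (-2.12 and -1.75).

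In lipid uptake 8 of 14 genes were lower and 1 higher in KPC LECs, and 5 of 14 lower and 2 higher in PyMT LECs, with 0 higher and 5 lower in both among 13, where 7.72% of all genes were lower in KPC, 4.59% in PyMT and 3.84% in both, and 7.00% were higher in KPC and 8.55% in PyMT. Fabp4, a fatty acid carrier of capillary endothelium, was at 921 and 490 CPM in LECs against 5204 and 2104 CPM in BECs (-2.50 and -2.10). Gpihbp1, which anchors lipoprotein lipase, had -1.94 and -2.05, and Scarb1 -2.14 and -1.67. Glycolysis and hypoxia genes had 3 of 15 lower in both and 1, Ndrg1, higher in both (1.02 and 1.52), against 3.84% and 5.52% of all genes. Pkm, a glycolytic kinase, was at 416 and 489 CPM in LECs against 998 and 1272 CPM in BECs (-1.26 and -1.38), and the glucose transporter gene Slc2a1 had -1.27 and -1.22. The medians of the glycolysis list were -0.39 in both libraries.

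None of the 14 cycling genes passed the fold in either library (medians -0.01 and -0.12). Beside them, 7.00% of all genes were higher and 7.72% lower in KPC, and 8.55% and 4.59% in PyMT. Cells with at least 3 UMIs over Mki67, Top2a, Cdk1, Ccnb1, Birc5 and Cenpf made up 184 KPC LECs (21.1%) and 146 PyMT LECs (21.5%), against 15.5% and 24.4% of BECs. After thinning, the shares were 17.9% (15.03 to 21.05) and 16.4% (13.3 to 19.9) of LECs, and 14.3% (13.3 to 15.4) and 14.7% (14.0 to 15.4) of BECs. These intervals treat cells of 1 library as independent and cover counting error only, and the differences were not tested. Ccl21a was at 9582 CPM in cycling and 14926 CPM in other LECs of KPC, and at 7540 and 13807 CPM in PyMT. Cycling LECs were deeper, with a median of 6599 against 2830 UMIs in KPC and 5903 against 2726 in PyMT. UMIs of 8 blood endothelial genes, the panel given below, numbered 10 or more in 20.1% of cycling KPC LECs and 14.7% of the others. In PyMT these shares were 28.1% and 16.2%. LECs above that cut had less Ccl21a, as given below. The part of depth or doublets in the cycling values was not tested. Serpine2 had a log2 ratio of cycling over other LECs of -0.91 and -1.51.

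Blood endothelial genes were lower in LECs but not absent from them. Of 28 listed genes, 24 were lower in KPC LECs and 20 in PyMT LECs, where 7.72% and 4.59% of all genes were lower, and 0 were higher. The median ratio was -2.42 and -1.81. By the fixed rank the 15 lowest genes were Esm1, Igfbp3, Apln, Tmem252, Mfng, Aplnr, Fam167b, Ly6a, Rgcc, Ms4a6d, Ly6c1, Fabp4, Nrp1, Sparcl1 and Vwa1. Esm1, a tip cell gene, was at 78.4 and 35.6 CPM in LECs against 460 and 190 CPM in BECs (-2.55 and -2.41). Apln, the tip cell ligand, and its receptor gene Aplnr both had -2.80 in KPC, and -2.24 and -2.19 in PyMT. Plvap, the diaphragm protein of fenestrae, was less reduced, with 754 and 675 CPM in LECs against 2807 and 1306 CPM in BECs (-1.90 [-1.95, -1.84] and -0.95 [-1.02, -0.89]).

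These blood endothelial transcripts were concentrated in a part of the LECs. Over a panel of 8 genes chosen after their values were seen (Flt1, Ly6c1, Cd34, Esam, Emcn, Cd93, Sparcl1 and Aplnr), the median LEC had 3.61 panel UMIs per 10000 in KPC and 4.78 in PyMT, and the median BEC 87.1 and 59.2. No panel UMI was found in 33.0% and 26.0% of LECs. At the other end, the 10% of LECs with the most held 65.8% and 57.9% of all panel UMIs. LECs with 10 or more panel UMIs numbered 138 (15.9%) and 127 (18.7%), and BECs 6190 (89.9%) and 8999 (91.9%).

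**Figure D4:**
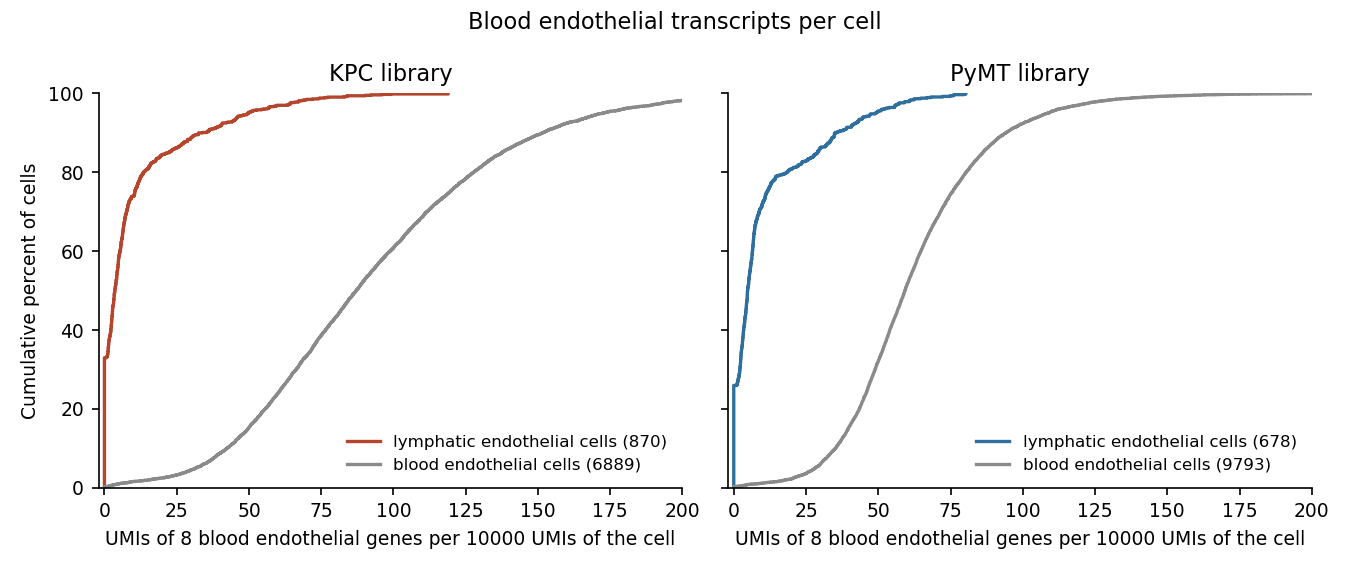
Cumulative percent of cells (y axis) with up to a given number of UMIs of 8 blood endothelial genes per 10000 UMIs (x axis), in LECs and BECs of each library, with the axis ending before the highest BECs. The LEC curves start at 33.0% and 26.0%, the share with no such UMI, and rise steeply, while the medians of the BEC curves lie at 87.1 and 59.2 per 10000.

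The LECs with 10 or more panel UMIs differed from the rest in depth and in lymphatic genes. Their median was 6262 UMIs in KPC and 6445 in PyMT, against 2912.5 and 2723 in the other LECs. Lyve1 was at 947 against 2079 CPM in KPC and at 417 against 1038 CPM in PyMT, and Ccl21a at 6706 against 15293 CPM and 5380 against 14466 CPM. Igfbp3, which was not in the panel, was at 623 against 75.7 CPM in KPC and 931 against 116 CPM in PyMT, and Esm1 at 277 against 9.82 CPM and 98.1 against 7.11 CPM. A cut on raw UMIs selects deeper cells, and it did so in BECs too (3133.5 against 1163 UMIs in KPC, 4196 against 1849 in PyMT). Igfbp3 and Esm1 lay between the levels of other LECs and BECs, Lyve1 and Ccl21a were lower than in other LECs, and the part of doublets in these values was not tested.

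Leaving those cells out lowers blood endothelial genes in the rest by the way the cells were chosen, so the ratios that follow are a description. The log2 ratio of Esm1 was then -5.55 in KPC and -4.74 in PyMT, that of Rgcc -5.28 and -4.10, that of Igfbp3 -4.17 and -3.93 and that of Sparc -3.93 and -3.19. Plvap stayed the least reduced of these, at 472 and 514 CPM in LECs (-2.57 and -1.35). Kdr had -0.95 and -0.12, within the fold as before.

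LECs of the tumor models were compared gene by gene, with BECs of the same libraries beside them. Of 8382 genes counted in LECs, 140 (1.67%) were higher and 94 (1.12%) lower in KPC, and of 8081 counted in BECs, 471 (5.83%) were higher and 89 (1.10%) lower. These shares depend on depth and on the number of cells summed, which differ between LECs and BECs, and their difference was not tested. Of the 10 initial lymphatic genes, 6 were within the fold, among them Ccl21a (0.17), Pdpn (0.15) and Flt4 (0.26), 3 were higher and 1, Cd36, was lower in KPC (-1.40). Lyve1 was higher in KPC LECs by 1.08, Thy1 by 1.02 and Fgl2 by 1.05, and the same genes differed by 0.81, 1.18 and 0.76 in BECs, at far lower levels.

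By the fixed rank, the 10 genes highest in KPC over PyMT LECs were Krt19, Plac8, Krt8, Krt18, Clu, Gm42418, Lcn2, Fabp5, Id2 and Gpx3. Krt19, a keratin of ductal epithelium, was at 149 CPM in KPC LECs, in 63 cells with 37.8% of its UMIs in 1 cell, and at 0 UMIs in PyMT LECs. Krt8 (2.54), Krt18 (1.94), Plac8 (6.15) and Clu (1.62) differed in the same direction in BECs and by more (3.76, 3.68, 7.78 and 3.87). Without LECs that had at least 2 UMIs of Plvap and Flt1, the ratio of Clu in LECs was -0.011. The keratins thus differed between the models in both populations. Lcn2, which encodes lipocalin-2, was at 236 and 94.2 CPM in LECs against 2.81 and 0.949 CPM in BECs. Gpx3, an extracellular glutathione peroxidase, was at 445 and 182 CPM in LECs against 39.6 and 30.1 CPM in BECs, and its level in non-endothelial cells was higher still, at 865 and 355 CPM. The log2 ratios KPC over PyMT of Lcn2 and Gpx3 were 1.32 and 1.29 in LECs and 1.57 and 0.40 in BECs.

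The 10 lowest in KPC over PyMT LECs included Car4, H2-Q7, Gm10076, Mest, Dcn, Pla2g16, Hist1h2ap, Gbp2 and H2-K1, among them class I genes of antigen presentation and an interferon-induced GTPase. Car4 (-3.15), Gm10076 (-1.59), Mest (-1.23), Pla2g16 (-1.12) and Hist1h2ap (-1.04) differed in the same direction in BECs (-2.25, -1.62, -2.54, -0.57 and -1.31). H2-Q7, Dcn, Gbp2 and H2-K1 had positive ratios in BECs (0.37, 0.15, 0.12 and 0.25). H2-K1, a classical class I heavy chain, was at 541 CPM in KPC LECs and 1002 CPM in PyMT LECs, while BECs had 823 and 693 CPM. B2m, the light chain, was at 2691 and 3956 CPM in LECs and 4234 and 3413 CPM in BECs. Their log2 ratios KPC over PyMT were -0.89 and -0.56 in LECs and 0.25 and 0.31 in BECs, all within the fold. The ratio of Gbp2 in LECs, -0.99, was within the fold as well. Over the 12 counted genes of antigen presentation the median was -0.57 in LECs and 0.41 in BECs. Over the 15 interferon-stimulated genes it was -0.46 and 0.12, beside medians over all genes of 0.05 and 0.11. In LECs 0 of the 12 passed the fold and 3 of the 15 were lower in KPC. In BECs 4 of the 12 and 1 of the 15 were higher. Of all genes, 1.67% were higher and 1.12% lower in LECs, and 5.83% and 1.10% in BECs.

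In KPC 0 of 11 counted antigen presentation genes were higher or lower in LECs (median -0.53), and in PyMT 4 of 12 were higher and 0 lower (median 0.44), beside 7.00% and 8.55% of all genes higher. Gbp2 was at 52.1 CPM in LECs and 56.4 CPM in BECs of KPC, and at 104 and 51.8 CPM in PyMT. The ratio of Cxcl10, a T cell chemokine, was -1.28 and 0.23. The class II invariant chain gene Cd74 came from 32 PyMT LECs and H2-Aa from 8, with 42.1% of the H2-Aa UMIs in 1 cell. Of 15 interferon-stimulated genes, 1 was higher and 3 lower in KPC LECs, and 2 were higher and 1 lower in PyMT LECs, beside 7.00% and 7.72% of all genes in KPC and 8.55% and 4.59% in PyMT. Ifi27l2a was the 1 higher in both, at 904 and 872 CPM against 27.6 and 17.8 CPM in BECs (5.04 and 5.61).

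Immediate early and flow genes differed in the other population. Over 14 counted genes the median log2 ratio KPC over PyMT was 0.25 in LECs, with 1 gene past the fold, and 1.57 in BECs, with 11 past it, all higher in KPC, where 1.67% and 5.83% of all genes were higher. Fos was at 1979 and 1611 CPM in LECs and at 1875 and 607 CPM in BECs. Egr1, a serum response gene, was at 266 and 262 CPM in LECs and 355 and 82.3 CPM in BECs, and Klf4, a shear-responsive factor, at 416 and 314 CPM in LECs and 299 and 84.4 CPM in BECs. In LECs, Egr1 was nearly equal between the libraries and Fos and Klf4 differed within the fold, whereas BECs had less of these genes in PyMT than in KPC. The ratios of LECs over BECs for Egr1 were accordingly -0.42 in KPC and 1.67 in PyMT.

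**Figure D5:**
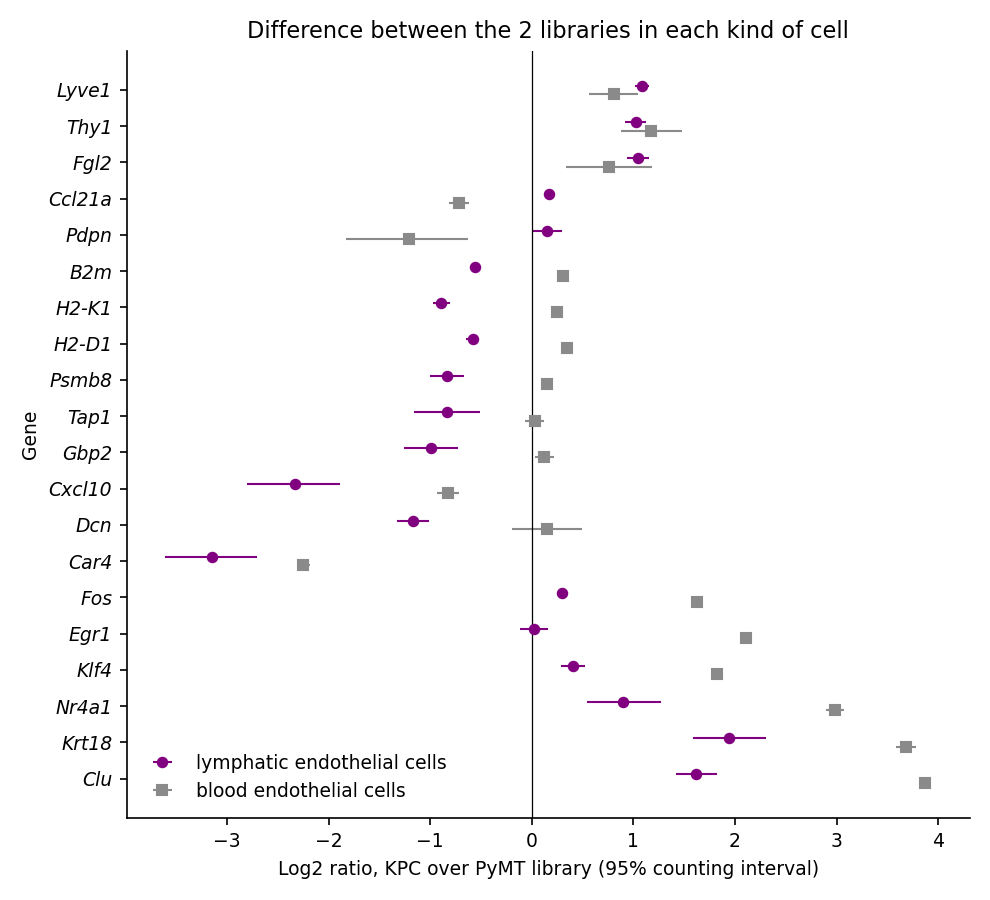
Log2 ratio of the KPC over the PyMT library (x axis, 95% counting intervals) in LECs (circles) and BECs (squares) for 20 genes (rows). Lyve1 and Thy1 lie right of 0 in both populations, B2m, H2-K1 and H2-D1 lie left of 0 in LECs and right of it in BECs, and Egr1 lies at 0.02 in LECs and 2.11 in BECs.

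Markers of other cells were measured in the LECs beside these results. The 8 fibroblast markers summed to 258 CPM in KPC LECs and 405 CPM in PyMT LECs, against 40.8 and 37.8 CPM in BECs and 13065 and 25665 CPM in non-endothelial cells, with 4 of 8 at 10 CPM or more in each library. The most abundant was Dcn, which encodes decorin (136 and 306 CPM, in 149 and 205 LECs), while Col1a1 was at 2.34 and 0.698 CPM, Pdgfra at 0.521 and 0.698 CPM and Lum at 3.13 and 0.349 CPM. Postn was at 48.5 and 16.1 CPM, Mmp2 at 43.2 and 54.1 CPM, Col3a1 at 22.7 and 20.6 CPM and Col6a1 at 1.30 and 7.33 CPM. Of the 4 fibroblast markers counted in each library, 3 were higher in LECs than in BECs (all genes 7.00% and 8.55%). The part of fibroblast RNA in these values, and in those of Mmp2 above, was not tested. Dcn differed between the models by -1.17 in LECs.

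The 8 epithelial or tumor cell markers summed to 480 CPM in KPC LECs, led by Krt19 (149 CPM), and to 65.2 CPM in PyMT LECs, led by Krt18 (27.9 CPM), with 5 and 3 at 10 CPM or more. BECs had 868 and 42.7 CPM and non-endothelial cells 5307 and 1489 CPM. Krt19, Krt7 and Cdh1 had 0 UMIs in PyMT LECs. The part of tumor cell RNA in the keratin difference between the models was not tested.

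The 12 immune markers summed to 114 and 83.0 CPM in LECs and 82.6 and 40.8 CPM in BECs, with 250.4 and 27.3 CPM in non-endothelial cells and 3 markers at 10 CPM or more in LECs of each library. Of the 3 counted in each library, 0 were higher in KPC LECs and 2 in PyMT LECs than in BECs (all genes 7.00% and 8.55%). Cd14 led in KPC (27.9 CPM) and Fcer1g in PyMT (22.3 CPM), and Cd3e and Cd79a, which define T and B cells, had 0 UMIs in both. The 8 pericyte markers summed to 138 and 56.2 CPM in LECs and 451 and 119 CPM in BECs, with 5 and 2 at 10 CPM or more. Tagln led in KPC (38.8 CPM) and Kcnj8 in PyMT (30.0 CPM), Myh11 had 0 UMIs in both and Cspg4 in PyMT. The 6 mesothelial markers summed to 10.2 and 14.3 CPM, led by Msln (8.86 CPM, KPC) and Slpi (14.3 CPM, PyMT), with Upk3b, Lrrn4 and Wt1 at 0 UMIs in both and Msln and Krt14 in PyMT. The 6 erythroid markers summed to 3.65 and 1.74 CPM, led by Hba-a1 (2.34 CPM) and Hbb-bs (0.698 CPM), with Alas2 at 0 UMIs in both and Hbb-bt in PyMT. Mesothelial and erythroid transcripts were thus low in LECs of both models, and the part of other cells' RNA in the immune and pericyte sums was not tested.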

How the data were processed

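The 2 libraries were 10x Genomics 3′ scRNAseq, and the authors processed them with Cell Ranger 3.0 (3.0.2 in the matrix headers) on mm10. The deposited matrices hold UMI counts per gene and cell, not normalized, and no column belonged to another sample. The methods name 2 versions of the 10x kit, and the one used for these libraries was not settled. Cells were selected with Python 3.11.15, numpy 2.4.6, scipy 1.17.1 and pandas 2.3.3, counts were summed over each population of each library and scaled to CPM. Level intervals are exact Poisson, ratio intervals exact conditional binomial. Genes were counted where 1 of the populations had at least 10 CPM and both together at least 10 UMIs. Gate genes were left out, and a few named genes are not reported here. Where a symbol stood on several rows, the row on a reference chromosome of the GENCODE annotation was used. PCR duplicates are collapsed by UMIs, and intervals leave out variation between mice.

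The population and the lists were chosen with earlier results of these data known. Named genes were the list members, the 15 with the highest smaller and the 15 with the lowest larger ratio of the libraries among genes of at least 100 CPM, and the 10 highest and 10 lowest KPC over PyMT. The panel of 8 genes, the genes named in cells with valve transcripts or cycling cells, the predicted genes near Ccl21a, the Hox genes and Meis2 were chosen after their values were seen. Only the ratios with their intervals and the thinning were tested on simulated counts, which held counting error alone. Alternatives were other cell filters, gates, depth thinning, removal of possible doublets, scalings (with TMM factors of edgeR 4.0.16 in R 4.3.3) and filters on low genes. Figures used matplotlib 3.10.9.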

Additional observations from a re-analysis of the deposited data

Results flagged for a closer look

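For 5 genes the log2 ratio of LECs over BECs passed the fold downward in KPC and upward in PyMT, and the difference between the libraries was not tested. H2-Q7, a nonclassical class I gene, had -1.06 in KPC (62.8 CPM in LECs, 131 CPM in BECs) and 1.14 in PyMT (222 and 101 CPM). H2-Q6 had -1.75 (15.1 and 50.9 CPM) and 1.12 (68.4 and 31.6 CPM). These genes have near-identical neighbors, so how reads were divided among them is uncertain. Nr4a2, an immediate early nuclear receptor, had -1.22 and 1.27. Its level was about equal in LECs of both libraries (14.1 and 11.2 CPM) and differed in BECs (32.7 and 4.64 CPM). Tnfsf10, which encodes the death ligand TRAIL, had -1.02 and 1.05, with 18.5 and 25.1 CPM in LECs and 37.6 and 12.2 CPM in BECs. Pcdh7, a protocadherin, had -1.17 and 1.71, with 5.99 and 21.6 CPM in LECs and 13.5 and 6.62 CPM in BECs.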

How the results depend on the processing

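Of 265 ratios of listed or ranked genes past the fold, those that could be computed (262 after thinning, 259 without cells with Plvap and Flt1, 249 without cells with the panel) kept their sign except Ccl20, which fell to -2.13 in PyMT with a lymphatic gate of at least 5 (87.5% of its UMIs in LECs were in 1 cell). Of 48 KPC over PyMT ratios past it, Clu moved to -0.011 and Ramp3 to -0.83 when LECs with Plvap and Flt1 summing to at least 2 were left out, and Ramp3 to -0.53 when LECs with 10 or more panel UMIs were left out, an alternative chosen after seeing the data. Of the 46 such ratios that could be computed without cells with Plvap and Flt1, 30 kept their sign and were still past the fold. Single ratios were not recomputed under the minimum levels. The share of LECs in KPC and PyMT was 6.84% and 3.31% with a gate of at least 5, 10.1% and 7.18% with a gate of at least 2, 10.2% and 5.04% after thinning, 5.24% and 2.81% without cells with Plvap and Flt1, 7.74% and 4.74% without cells with the panel, and 10.0% in KPC with the stricter cell filter. Without cells with Plvap and Flt1, 638 genes were lower in PyMT. With no minimum level 2425 genes were higher and 4468 lower in KPC, 2844 and 4181 in PyMT, and 1333 and 2167 in both; at 50 CPM or more the counts were 237 and 289, 232 and 169, and 168 and 139. TMM factors moved the median ratio of all genes from 0.02 to -0.07 in KPC and from 0.08 to -0.09 in PyMT, and the share of higher genes among those past the fold from 65.0% to 55.3% in PyMT. With no minimum that share fell to 35.2% (KPC, from 47.5%) and 40.5% (PyMT). The cause of these shifts was not tested. Depth limits genes near 1 CPM. No paired analysis was possible because each tumor model had 1 library.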

Other observations

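Hox genes keep a record of position along the body. Of 39 Hox genes measured, 12 reached 10 CPM in LECs or BECs, and they were chosen for description after their values were seen. Hoxd9 was at 57.3 CPM in KPC LECs and 77.8 CPM in PyMT LECs, and at 2.33 CPM in KPC BECs and 44.8 CPM in PyMT BECs. A UMI of Hoxd9 was found in 20.2% and 26.3% of LECs and in 0.915% and 17.2% of BECs. The log2 ratio of LECs over BECs was 4.62 [4.21, 5.05] in KPC and 0.80 [0.59, 0.998] in PyMT. Hoxd10 had 39 UMIs in KPC LECs against 1 in KPC BECs (8.10 [5.54, 13.44]), and 104 against 1074 in PyMT (36.3 and 23.2 CPM, 0.65 [0.34, 0.94]). Hoxa7 was at 38.6 and 69.4 CPM in LECs and 11.02 and 69.8 CPM in BECs. Hoxb7 had the other order in KPC, with 16.9 CPM in LECs and 45.0 CPM in BECs, and 70.1 and 66.8 CPM in PyMT. Hoxd8 had log2 ratios of 1.63 and 0.20, Hoxa5 -1.20 and -0.32 and Hoxb6 -1.47 and -0.26. Hoxb2 (-1.25 and -2.03), Hoxb5 (-1.59 and -1.02) and Hoxb8 (-2.39 and -1.23) were lower in LECs of both libraries, Hoxb4 was within the fold (-0.80 and -0.71), and Hoxb9 had 3 UMIs in KPC LECs and 8 in PyMT LECs. Non-endothelial cells had 0.419 CPM of Hoxd9 in KPC and 0 UMIs in the 17 cells of PyMT. The shares of cells with a UMI were not thinned to equal depth.

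Meis2, a cofactor of homeobox proteins, had the reverse pattern in BECs. It was at 81.5 and 76.4 CPM in LECs and at 34.6 CPM in KPC BECs and 0.971 CPM in PyMT BECs (log2 ratio 1.24 and 6.30). A UMI was found in 26.2% and 25.4% of LECs and in 11.4% and 0.419% of BECs. The level in LECs was therefore nearly equal between the libraries for Meis2, and within the fold for Hoxd9 (-0.44 [-0.72, -0.17] KPC over PyMT). Some other Hox genes passed the fold downward in KPC LECs. Hoxd10 had -1.84 [-2.41, -1.29] (10.2 against 36.3 CPM), Hoxb7 -2.05 [-2.48, -1.64], Hoxb8 -1.76 and Hoxb6 -1.22. Hoxb9 had -1.84 [-4.39, 0.22], and the remaining Hox genes named above were within the fold.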
